A study of Mus musculus with 4 samples.

Results

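Cd59a and 8 other genes of the complement system were followed in the RNA of whole hearts from mice of postnatal day 14. The 9 genes were taken by their mouse gene symbols from a table of 54752 gene identifiers, of which 15283 had enough counts to be compared, all 9 among them. Of these genes 4 encode inhibitors that sit on the cell surface (Cd59a, Cd59b, Cd55, Cr1l) and 5 encode complement components (C1qa, C1qb, C1qc, C3, C4b). The genes were picked with the fold changes of this same comparison already known, so their own differences are described without a test. The hearts were from 2 libraries labelled Carm1 mutant and 2 labelled wild type. Carm1 encodes a protein arginine methyltransferase that modifies histones and coactivators, and the series is about how heart muscle matures after birth. The allele, its promoter or Cre driver, the strain and the sex of the animals are left unstated in the labels, and the series text calls the hearts neonatal where the labels give day 14. No label ties a library to an animal, so the spread within a group may be technical.

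Complement is a cascade of blood proteins that marks and lyses cells. C1q binds its targets and, through the proteases C1r and C1s, cleaves C4 and C2. The resulting convertase cleaves C3, which coats the surface and leads to the membrane attack complex. Host cells carry inhibitors against this. CD55 speeds the decay of the convertases, Crry (the product of Cr1l, found in rodents) also acts against them, and CD59 blocks the last step, in which C9 inserts into the membrane. CD59 and CD55 are held on the membrane by a glycosylphosphatidylinositol (GPI) anchor. The mouse has a pair of CD59 genes side by side, Cd59a with wide expression and Cd59b, which is best known from testis.

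Depth was 22217442 and 11677604 counts in the mutant group, against 21719161 and 20778420 in the wild-type group. Carm1 itself had 35.8 and 31.8 CPM (counts relative to library size, scaled by TMM) in mutant libraries 1 and 2, against 45.9 and 52.3 CPM in wild-type libraries 1 and 2, a log2 fold change of −0.54 that did not pass the threshold (edgeR FDR = 0.114). The libraries also divide by sex as they divide by label. Xist had 8116 and 3921 counts in the mutant libraries and 12 and 15 in the wild-type libraries, and 4 Y-linked genes summed to 7 and 0 in the mutant libraries, against 1769 and 2236 in wild type. Genotype and sex therefore cannot be told apart in any difference given here. The wild-type pair differed more between its libraries than the mutant pair, with a chi-square per degree of freedom of 51.1 against 11.5 in the mutant pair. The cardiomyocyte marker list summed to 42603 and 45368 CPM in the mutant libraries and to 82486 and 72746 CPM in the wild-type libraries, and all 10 of its genes had a log2 fold change below 0, with a median of −0.82. By edgeR 2 of the 10 were called lower, Pln (−0.90) and Myom1 (−1.28), and 9 were at an unadjusted p under 0.05. The limma-voom fit called 2 and DESeq2 called 9. Of all 15283 genes compared edgeR called 4.58% lower, limma-voom called 702 lower and DESeq2 called 1117 lower. The share of all genes at an unadjusted p under 0.05 is not given, so such counts, here and below, stand without it. With either mutant library left out, edgeR called neither Pln (−0.93 without mutant replicate 1, −0.88 without mutant replicate 2) nor Myom1 (−1.32 and −1.26). Fits without a mutant library called fewer genes over the whole table, so a call lost in them, here and below, need not be particular to the gene. In the mast cell list of 5 genes edgeR called 1 higher, beside 2.79% called higher of all genes compared. The call was Kit, with 18.5 and 16.8 CPM in mutant hearts and 4.35 and 6.64 CPM in wild-type hearts (log2 fold change 1.68, edgeR FDR = 0.0149). All 5 genes had a log2 fold change above 0, with a median of 0.86. In whole tissue, fewer cells of a type and less RNA per cell cannot be told apart.

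Because the results turn on Cd59a and on how well its reads can be kept apart from those of Cd59b, the coding sequences of both are shown from GENCODE M21 (bases 1 to 240 of each, capitals marking bases that differ between the aligned genes or face a gap).
Cd59a: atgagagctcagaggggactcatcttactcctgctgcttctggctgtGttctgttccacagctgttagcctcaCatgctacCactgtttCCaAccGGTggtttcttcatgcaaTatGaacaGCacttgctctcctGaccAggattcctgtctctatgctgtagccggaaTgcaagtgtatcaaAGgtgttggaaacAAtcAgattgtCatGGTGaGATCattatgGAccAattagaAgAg
Cd59b: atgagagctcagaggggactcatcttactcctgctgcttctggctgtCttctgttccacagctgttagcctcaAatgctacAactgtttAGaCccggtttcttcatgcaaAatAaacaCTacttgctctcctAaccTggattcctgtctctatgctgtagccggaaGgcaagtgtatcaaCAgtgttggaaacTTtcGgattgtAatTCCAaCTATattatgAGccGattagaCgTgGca
Over the whole coding sequences 301 of 354 aligned bases were identical, which is 85.0%. The longest identical run between their transcripts was 104 bases, and 70 of the 1811 windows of 50 bases along the Cd59a transcripts, 3.87%, were also found in Cd59b. The labels do not say how reads that fit both genes were counted, so the split between Cd59a and Cd59b carries that uncertainty, which bears most on the rarer Cd59b. C4b shared 34.6% of such windows with C4a, with an identical run of 433 bases. That was the largest share among the pairs compared, which were Cd59a with Cd59b, C4b with C4a and Cd55 with Cd55b. Cd55 shared 384 of its 4801 windows with Cd55b, which had 0 counts in every library; a count of 0 allows up to 0.257 CPM in the shallowest library at a floor of 3 counts.

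Cd59a (ENSMUSG00000032679, GRCm38 chromosome 2, 104095801 to 104115354, plus strand) was lower in the mutant hearts. It had 10.7 and 12.1 CPM in the mutant libraries (268 and 164 counts), against 68.4 and 60.3 CPM in the wild-type libraries (1196 and 1181 counts). The groups were far apart beside the spread within each, with 11.4 ± 0.981 CPM in mutant and 64.4 ± 5.72 CPM in wild type (SD, n = 2 each). The log2 fold change was −2.50 with a standard error of 0.20 and a 95% interval of −2.96 to −2.04, so that the mutant level was 17.6% of wild type. Among 8284 genes with a mean of at least 10 CPM, Cd59a had the 7th lowest log2 fold change. Of the 9 genes it was the only one under an edgeR FDR of 0.05, and lower calls made up 4.58% of all 15283 genes compared (7.37% in either direction, with 2.79% higher; 426 genes higher and 700 lower). Since the genes were picked on this comparison, nothing is read from that count. With library totals in place of TMM the calls divided into 1188 higher and 207 lower, and the median of all genes moved by 0.39 on the log2 scale. Cd59a was 2.10 log2 units lower in mutant hearts under that scaling.

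**Figure D1:**
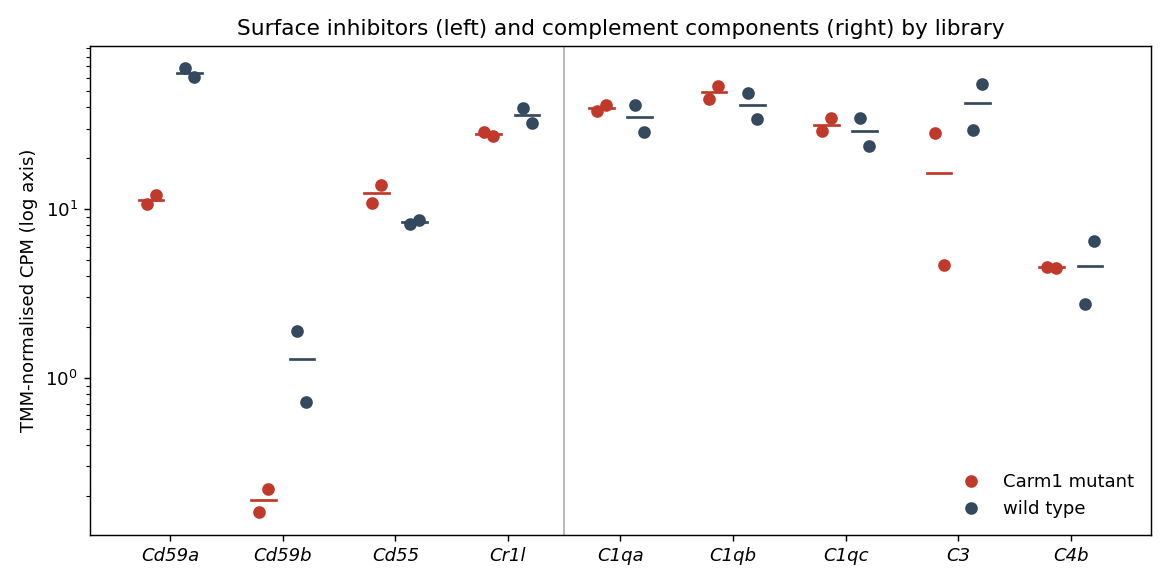
TMM-normalised CPM (log axis) of the 4 surface inhibitors, left of the line, and the 5 complement components, right of it, with 1 point per library and a bar at each group's mean, Carm1 mutant in red and wild type in dark blue. Cd59a sits at 10.7 and 12.1 CPM in mutant hearts and at 68.4 and 60.3 CPM in wild type, while the C1q genes overlap between the groups.

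Cd59b (chromosome 2, 104069849 to 104091187, plus strand) lies 4.61 kb before Cd59a and was a minor part of CD59 RNA in every library. It had 4 and 3 counts in the mutant libraries (0.160 and 0.221 CPM), against 33 and 14 in wild type (1.89 and 0.715 CPM). The groups did not overlap, but the wild-type libraries themselves differed widely and the mutant counts were few. The ratio of summed counts per effective library, mutant over wild type, was 0.143 with an exact 95% interval of 0.0545 to 0.318, which covers counting error only. The fitted log2 fold change was −2.77 with a standard error of 0.72, and without wild-type replicate 1 it was −1.94. Cd59b made up 1.47% and 1.80% of CD59 counts in mutant hearts, and 2.69% and 1.17% in wild-type hearts, so its share overlapped between the groups.

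Cd55, the decay-accelerating factor (chromosome 1, 130439027 to 130462744, minus strand), was the 1 inhibitor that stood higher in both mutant libraries. It had 10.8 and 13.9 CPM in mutant hearts and 8.12 and 8.58 CPM in wild-type hearts, a log2 fold change of 0.56 with a standard error of 0.22. The antisense gene model Gm16083 overlaps the start of Cd55, and without a stated strand setting their reads cannot be told apart. Cr1l (chromosome 1, 195097382 to 195131586, minus strand) had 28.6 and 27.2 CPM in mutant hearts, against 39.5 and 32.3 CPM in wild-type hearts. Its log2 fold change of −0.36 had a 95% interval of −0.80 to 0.08, and with library totals alone it was 0.039, on the other side of 0. The groups did not overlap for these 4 inhibitors and C3, 5 of the 9 genes, beside 59.0% of all genes compared. The mutant libraries were the lower ones for 4 of them (28.7% of all genes) and the higher ones for Cd55 (30.3%).

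C1qa, C1qb and C1qc encode the chains of C1q, the recognition protein of the classical pathway, and lie together on chromosome 4 (136880129 to 136898803 over the 3 genes, minus strand). C1qa had 38.3 and 41.3 CPM in mutant hearts and 41.3 and 28.6 CPM in wild-type hearts. C1qb had 44.9 and 53.4 CPM in mutant hearts and 48.8 and 34.1 CPM in wild-type hearts. C1qc had 28.9 and 34.5 CPM in mutant hearts and 34.7 and 23.6 CPM in wild-type hearts. All 3 overlapped between the groups, with wild-type library 2 the lowest for each. Their log2 fold changes were 0.19 (95% interval −0.33 to 0.70) for C1qa, 0.25 (−0.28 to 0.77) for C1qb and 0.12 (−0.42 to 0.66) for C1qc. Without wild-type replicate 2 they were −0.09, −0.03 and −0.17 in that order, and C1qc was −0.02 without mutant replicate 2. With library totals in place of TMM, C1qa, C1qb and C1qc were at 0.60, 0.66 and 0.53, none called by edgeR. Under that scaling the median of all genes moved by 0.39.

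The 3 chains kept nearly the same proportions in every library. C1qb made up 40.1% and 41.3% of C1q counts in mutant hearts and 39.1% and 39.5% in wild-type hearts. C1qa made up 34.1% and 32.0% in mutant hearts and 33.1% in both wild-type hearts. Macrophages are the main known source of C1q in tissues, and the list of 19 macrophage markers summed to 230 and 250 CPM in mutant hearts and 220 and 216 CPM in wild-type hearts. Of its 18 tested genes edgeR called 0, beside 7.37% of all genes compared, with 1 at an unadjusted p under 0.05. DESeq2 and limma-voom also called 0. C1q over the macrophage sum was 0.488 and 0.517 in mutant hearts and 0.568 and 0.399 in wild-type hearts, again overlapping.

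C3 (chromosome 17, 57203970 to 57228136, minus strand), the protein on which all pathways converge, differed most between libraries of 1 group. It had 28.2 and 4.64 CPM in mutant hearts (706 and 63 counts), against 29.4 and 55.2 CPM in wild-type hearts (514 and 1080 counts). Mutant library 1 lay close to wild-type library 1, and mutant library 2 held 0.165 times the level of mutant library 1. The log2 fold change of −1.33 had a 95% interval of −2.85 to 0.18. It was −3.19 without mutant replicate 1, −0.59 without mutant replicate 2, −1.69 without wild-type replicate 1 and −0.81 without wild-type replicate 2. Blocking on the replicate number gave −1.70.

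The summed markers of epicardium and mesothelium, the sheet of cells that covers the heart, were lowest in mutant library 2, as was C3. All 6 markers summed to 53.1 and 31.4 CPM in mutant hearts and to 54.7 and 57.7 CPM in wild-type hearts, so mutant library 1 lay close to wild-type library 1. Without Wt1, the list summed to 33.7 and 11.8 CPM in mutant hearts and to 46.2 and 46.6 CPM in wild-type hearts. Upk3b, a mesothelial surface marker, had 13.8 and 4.20 CPM in mutant hearts and 20.8 and 19.5 CPM in wild-type hearts. Wt1, which is also expressed in endothelial and other cells, went the other way, with 19.4 and 19.7 CPM in mutant hearts and 8.52 and 11.1 CPM in wild-type hearts. Of the 6 markers edgeR and limma-voom each called 1 and DESeq2 called 2, beside 7.37% called by edgeR of all genes compared. The edgeR call was Wt1 (log2 fold change 0.99, FDR = 0.0345). That call was lost without mutant replicate 1 (log2 fold change 0.999) and without mutant replicate 2 (0.97). C3 over the sum without Wt1 was 0.836 and 0.394 in mutant hearts and 0.636 and 1.18 in wild-type hearts, so the ratio was not constant either. What part this tissue has in the C3 values was not tested. Of 7 hepatocyte markers, Alb had 0 counts in every library. Ahsg, the 1 with enough counts, had 8.73 and 4.49 CPM in mutant hearts and 6.69 and 15.1 CPM in wild-type hearts. Its log2 fold change was −0.69, not called by edgeR, and its part in the C3 values was not tested.

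**Figure D2:**
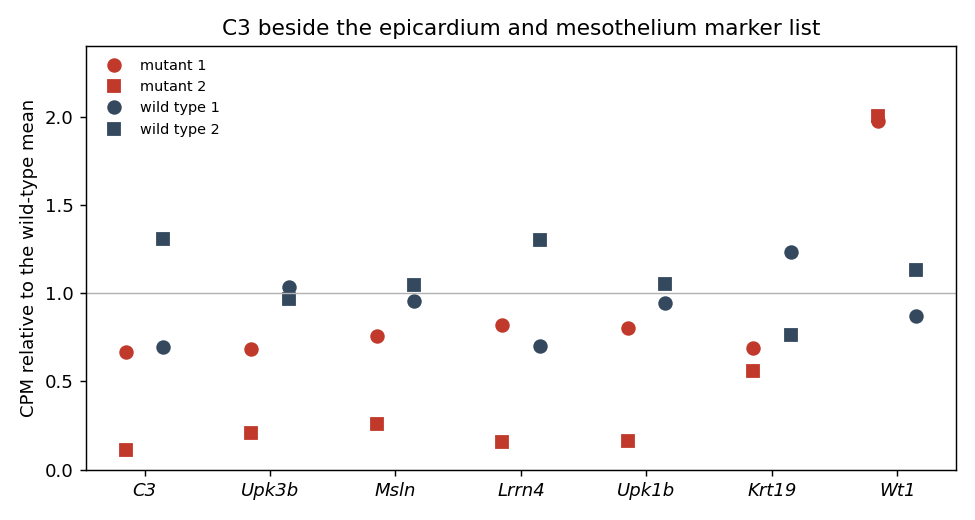
Level of C3 and of 6 markers of epicardium and mesothelium in each library, as CPM divided by the wild-type mean of that gene, with Carm1 mutant libraries in red and wild-type libraries in dark blue (circles for library 1, squares for library 2). Mutant library 2 is lowest for C3 at 4.64 CPM and for Upk3b at 4.20 CPM, while both mutant libraries lie above wild type for Wt1.

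C4b (chromosome 17, 34728380 to 34743882, minus strand), the mouse C4 gene, showed no difference beyond its spread. It had 4.55 and 4.49 CPM in mutant hearts, both inside the wild-type pair of 2.75 and 6.44 CPM. Its log2 fold change was −0.03 with a 95% interval of −0.93 to 0.88. It was −0.52 without wild-type replicate 1 and 0.68 without wild-type replicate 2, so that either library sets its direction. C4a, which shares sequence with C4b, had 22 and 7 counts in the mutant libraries and 2 and 3 in the wild-type libraries. Its log2 fold change was 2.36, not called by edgeR (FDR = 0.0790), and the ratio of counts was 5.56 with an exact interval of 2.13 to 18.4. How reads that fit both C4 genes were counted is not stated.

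Per kilobase of the longest coding transcript, Cd59a stood among the C1q genes in wild-type hearts and well below them in mutant hearts. In mutant hearts the order of mean CPM per kb was C1qb (45.2), C1qa (38.3), C1qc (26.3), Cr1l (10.1), Cd59a (6.30), Cd55 (4.89), C3 (3.19), C4b (0.840) and Cd59b (0.239). The Cd55 and C3 libraries overlapped there, and no other neighbours in that order did. In wild-type hearts the order was C1qb (38.1), Cd59a (35.6), C1qa (33.6), C1qc (24.3), Cr1l (12.9), C3 (8.23), Cd55 (3.30), Cd59b (1.63) and C4b (0.853). Neighbours overlapped there from C1qb through C1qc, and Cd59b overlapped C4b. Over all annotated exons in place of the longest transcript, Cr1l came to 2.76 and 2.63 CPM per kb in mutant hearts and 3.81 and 3.12 in wild-type hearts, which is below Cd59a in both groups.

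Set against the components, the surface inhibitors as a class were lower in mutant hearts, and this rested on Cd59a. The 4 inhibitors summed to 50.3 and 53.5 CPM in mutant hearts and to 118 and 102 CPM in wild-type hearts. The 5 components summed to 145 and 138 CPM in mutant hearts and to 157 and 148 CPM in wild-type hearts. Within each library, inhibitor counts over component counts were 0.347 and 0.387 in mutant hearts and 0.751 and 0.689 in wild-type hearts. The groups did not overlap, and the log2 ratio was 0.97 lower in mutant hearts (a difference of −0.97, with a larger group SD of 0.11). Left without Cd59a, the inhibitors summed to 39.6 and 41.4 CPM in mutant hearts and 49.5 and 41.6 CPM in wild-type hearts, and the difference in log2 ratio was −0.06. Without C3 it was −1.28, and per kilobase it was −1.96. With 2 libraries a group an exact two-sided permutation test cannot give a p below 0.333, and none was run because Cd59a was known to be low.

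The median log2 fold change was −1.43 over the 4 inhibitors (1 above 0 and 3 below) and 0.12 over the 5 components (3 above and 2 below), beside 0.02 over all genes compared. The inhibitor median is the midpoint of Cd59a (−2.50) and Cr1l (−0.36). As the genes were picked on this comparison, nothing about a class is read from these medians. Cd59a made up 21.3% and 22.6% of inhibitor counts in mutant hearts, against 58.0% and 59.2% in wild-type hearts. Counts of Cd59a over Cr1l were 0.374 and 0.443 in mutant hearts and 1.73 and 1.87 in wild-type hearts. Counts of Cd59a over Cd55 were 0.985 and 0.868 in mutant hearts and 8.42 and 7.03 in wild-type hearts.

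**Figure D3:**
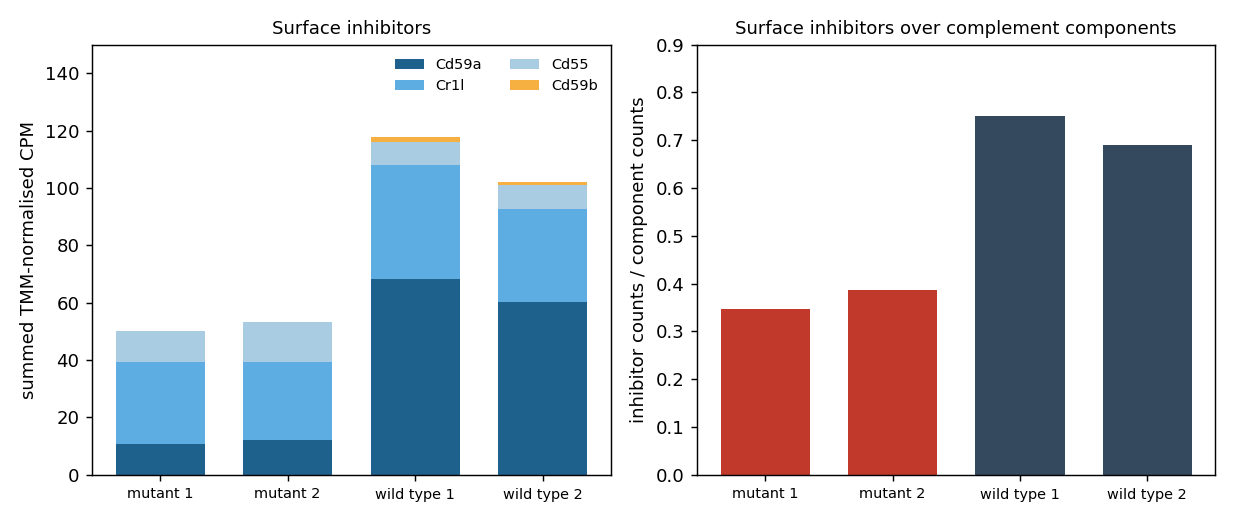
Left, summed TMM-normalised CPM of the 4 surface inhibitors in each library, stacked by gene. Right, counts of the inhibitors divided by counts of the 5 components in the same library, with Carm1 mutant in red and wild type in dark blue; the mutant bars stand at 0.347 and 0.387 and the wild-type bars at 0.751 and 0.689, and the Cd59a segment holds most of the difference in the stacks.

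Levels of Cd59a were set beside the summed markers of cell types and were lower in each case. As Cd59a was picked with its low level known, these ratios are a description and no further evidence. Per 1000 CPM of the cardiomyocyte list it had 0.251 and 0.266 in mutant hearts and 0.829 in both wild-type hearts, a ratio of means of 0.312. Per 1000 CPM of the endothelial list it had 4.49 and 5.79 in mutant hearts and 38.6 and 29.9 in wild-type hearts, a ratio of 0.150. Against the fibroblast list the ratio was 0.118. That list summed to 6478 and 6934 CPM in mutant hearts and 4255 and 4768 CPM in wild-type hearts. Of its 11 genes 10 had a log2 fold change above 0 and 1 below, with a median of 0.63. By edgeR 2 were called higher, Postn (1.38) and Pi16 (0.93), beside 2.79% called higher of all genes compared. Without mutant replicate 2 neither Postn (1.19) nor Pi16 (0.75) was called, nor was Pi16 without mutant replicate 1 (1.08) or with a replicate block (0.92). Against the smooth muscle and pericyte list the ratio was 0.157, against the macrophage list 0.161 and against the erythroid list 0.157. Against the epicardium and mesothelium list it was 0.255. The cardiomyocyte list itself was lower in mutant hearts, as given above, and its part in the Cd59a values was not tested. Which cells of these hearts carry Cd59a RNA cannot be told from whole tissue.

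Beyond the 9 genes, 50 complement genes were listed, of which 26 had enough counts. Of those 26 edgeR called 1 higher (Masp2), 0 lower and 25 in neither direction, beside 7.37% called of all genes compared, with 6 at an unadjusted p under 0.05; DESeq2 called 2 and limma-voom 1. Their median log2 fold change was −0.07, beside 0.02 over all genes compared. The groups did not overlap for 15 of the 26, a share near the 59.0% of all genes, and nothing particular to these genes is read from it. The number called changed when 1 library was left out, as the number called over all genes also did.

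Masp2, a serine protease of the lectin pathway, rose in mutant hearts. It had 3.11 and 4.57 CPM in the mutant libraries (78 and 62 counts), against 0.172 and 0.204 CPM in the wild-type libraries (3 and 4 counts). Its log2 fold change was 4.28 with a standard error of 0.49 (edgeR FDR = 0.00769), and the ratio of counts was 19.2 with an exact interval of 9.07 to 48.6. Masp2 overlaps the abundant gene Tardbp, which lies on the opposite strand, so reads from the pair cannot be told apart without a stated strand setting. Tardbp had 58.2 and 56.5 CPM in mutant hearts and 43.9 and 56.6 CPM in wild-type hearts (log2 fold change 0.19, FDR = 0.577).

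By list, the median log2 fold change, members included, was −0.01 over 12 tested genes of classical and lectin activation, −0.40 over C3 and properdin (Cfp), and 0.16 over 2 terminal components. It was −0.10 over 8 surface regulators, −0.21 over 5 fluid-phase regulators and −0.17 over 6 receptors. The genes called in these 6 lists by edgeR were Masp2 and Cd59a. Properdin, which stabilises the alternative convertase, had a log2 fold change of 0.54 (FDR = 0.171). Among surface regulators, Thbd was at 0.23 and Cd46 at 0.46. The abundant fluid-phase regulators Clu and Serping1, the C1 inhibitor, were at 0.12 and −0.31, neither called. Cd93, once described as a C1q receptor and abundant on endothelium, had 286 and 266 CPM in mutant hearts and 104 and 184 CPM in wild-type hearts, which did not pass in the edgeR fit (log2 fold change 0.94, FDR = 0.0833). It did pass in 7 of 16 alternatives, among them DESeq2 (FDR = 0.0119), the fit without wild-type replicate 1 (log2 fold change 0.57, FDR = 0.0311) and that without wild-type replicate 2 (1.37, FDR = 0.000132). Itgb2, the shared chain of complement receptors 3 and 4, was at −0.04.

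The genes for the terminal complex that CD59 acts on were scarcely detected. C6, C8a and C8b had 0 counts in every library. Hc, which encodes C5, and C9 had 1 count in all 4 libraries together. C7 (log2 fold change 0.15) and C8g (0.17) were low in both groups and not called. These proteins come mainly from the liver and reach the heart in blood, which RNA from the heart does not measure.

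**Figure D4:**
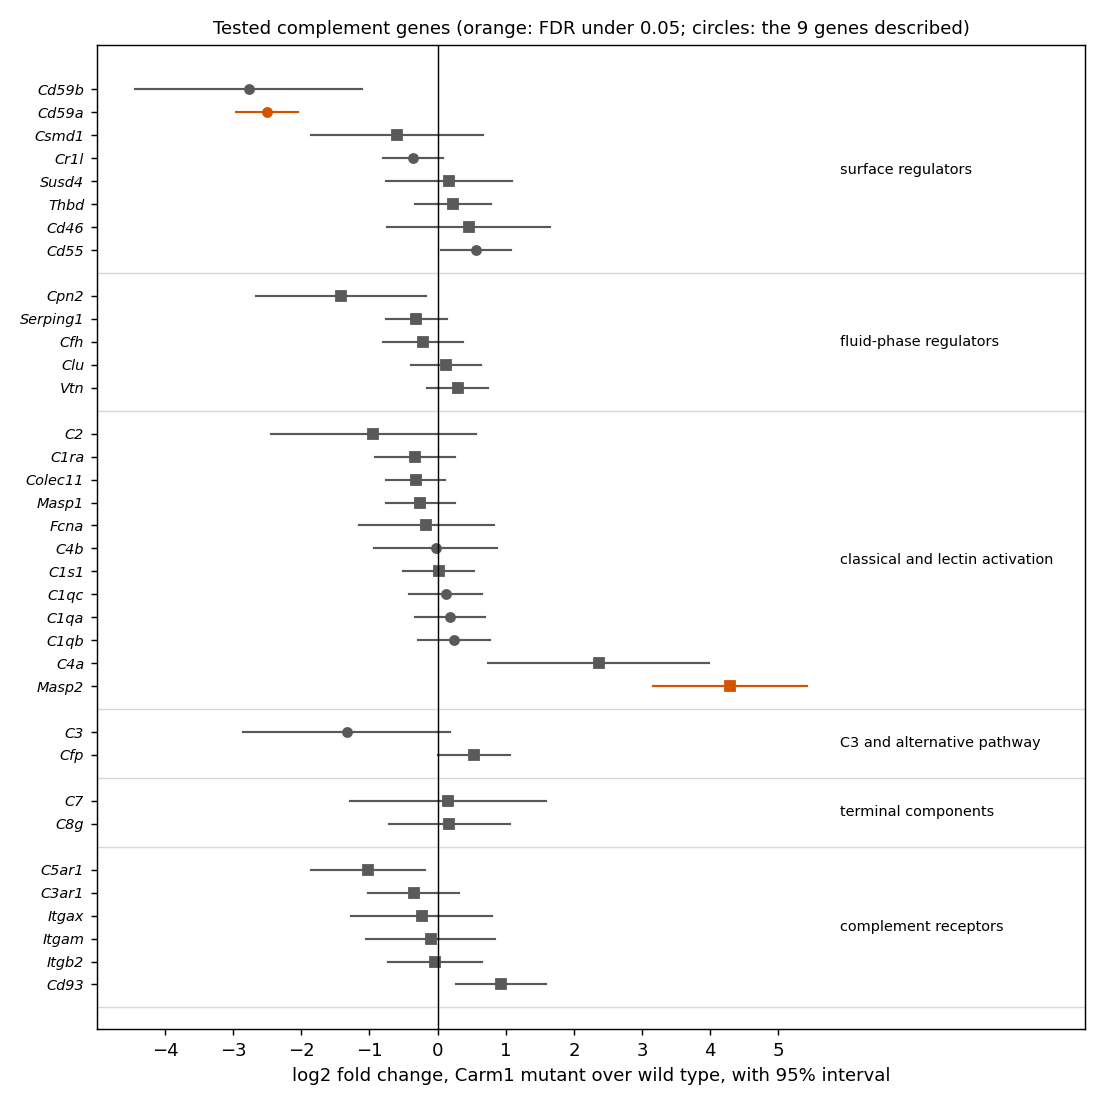
Log2 fold change, Carm1 mutant over wild type, with 95% interval, of each tested complement gene, grouped by role; circles are the 9 genes described, squares are other complement genes, and orange marks an edgeR FDR under 0.05. Cd59a at −2.50 and Masp2 at 4.28 are the orange points.

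Anchoring and family genes were compared because CD59 is a GPI-anchored protein of the Ly6/uPAR family. Of 28 tested genes for GPI anchor synthesis, edgeR called 0 in either direction, beside 7.37% of all genes compared. There were 4 at an unadjusted p under 0.05, and DESeq2 and limma-voom called 0. The median log2 fold change was −0.15. The most abundant, Pigt and Pigq, were at −0.17 and −0.35. Of 11 tested Ly6/uPAR genes edgeR called 2 lower and 0 higher (3 at an unadjusted p under 0.05), with a median of −0.21, beside 4.58% lower and 2.79% higher of all genes compared. DESeq2 also called 2 lower. The lower calls were 1 with limma-voom, 1 with upper-quartile factors and 1 with the 1 CPM filter, and with library totals alone there were 0 lower and 1 higher. Lynx1, a modulator of nicotinic acetylcholine receptors, had 133 and 160 CPM in mutant hearts and 333 and 275 CPM in wild-type hearts (log2 fold change −1.05, SE 0.22, edgeR FDR = 0.0323). It was not called with library totals (−0.64), without mutant replicate 1 (−0.92) or without mutant replicate 2 (−1.19). Lypd2 had 10 counts in the mutant libraries together and 76 in the wild-type libraries, a ratio of 0.126 with an exact interval of 0.0582 to 0.245 (edgeR log2 fold change −2.98, FDR = 0.0476). That call was lost without wild-type replicate 1 (log2 fold change −1.88, FDR = 0.129), without mutant replicate 1 (FDR = 0.0639), with library totals (FDR = 0.0577), with upper-quartile factors (FDR = 0.0516) and with limma-voom (FDR = 0.0932). Leaving out 1 library changed the number of lower calls in this family and among the GPI genes, as it changed the number called over all genes.

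Of the 5 tested genes on each side of Cd59a on chromosome 2, edgeR called 2, both before Cd59a. Both were higher in mutant hearts, beside 2.79% called higher of all genes compared. Lmo2, a LIM-domain cofactor of blood and endothelial cells, had 25.4 and 26.5 CPM in mutant hearts and 12.8 and 13.6 CPM in wild-type hearts (log2 fold change 0.98, edgeR FDR = 0.0256). Its FDR was 0.154 without mutant replicate 1 and 0.204 without mutant replicate 2. The gene model Gm13881 had 28 and 10 counts in mutant hearts and 1 count in each wild-type library, a ratio of 18.2 with an exact interval of 4.71 to 156 (edgeR FDR = 0.0270). Fbxo3, an F-box gene between Lmo2 and Cd59b, had 39.3 and 43.0 CPM in mutant hearts and 65.0 and 63.2 CPM in wild-type hearts, which did not pass (log2 fold change −0.64, edgeR FDR = 0.0716). The gene model 4931422A03Rik was at −0.76 and also not called. Cd59b, the nearest gene before Cd59a, was at −2.77 and not called (edgeR FDR = 0.0569). After Cd59a, Hipk3, Cstf3, Tcp11l1, Depdc7 and Qser1 were at −0.37, −0.04, 0.38, −0.07 and −0.41, none of them called.

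**Figure D5:**
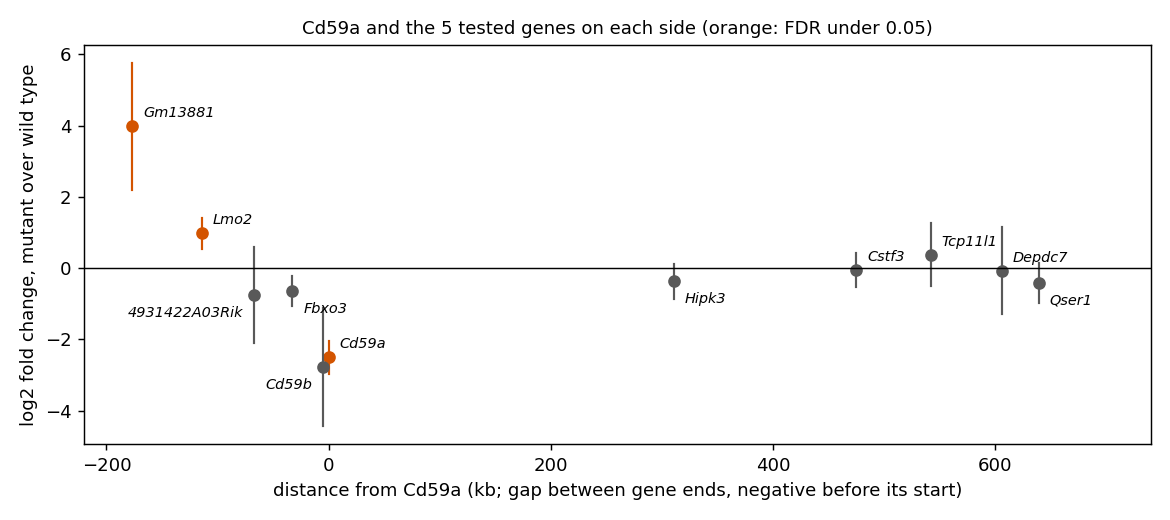
Log2 fold change, Carm1 mutant over wild type, of Cd59a and of the 5 nearest tested genes on each side, against the gap to Cd59a in kb, with 95% intervals and orange for an edgeR FDR under 0.05. Cd59a at −2.50 is the only orange point below 0, and Lmo2 at 0.98 and Gm13881 at 3.98 are above it.

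The 250 bases before the annotated start of Cd59a are shown because the results turn on this gene (RefSeq promoter table, GRCm38.p6, chr2:104095551-104095800, plus strand, read towards the gene). Capitals mark each copy of GGGTGTGG, a form of the CACCC box.
Cd59a promoter: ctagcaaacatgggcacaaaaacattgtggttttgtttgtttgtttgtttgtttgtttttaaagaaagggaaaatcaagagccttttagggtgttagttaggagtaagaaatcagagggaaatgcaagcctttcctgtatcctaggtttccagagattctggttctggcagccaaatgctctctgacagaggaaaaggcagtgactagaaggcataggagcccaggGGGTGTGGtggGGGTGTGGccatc
The copies begin 24 and 13 bases before the start. Of 32851 promoter windows of the same length, 3.20% held at least 1 copy on either strand. Promoter windows were matched for 7 of the 9 genes; those of C1qa and C4b were not matched. The 7 motifs searched, on both strands, were chosen after the sequences were seen. They were the TATA box as TATAAA, the GC box as GGGCGG, the CACCC box as GGGTGTGG and also as GGGCGTGG, an ERR site as AAGGTCA, a PU.1 site as GAGGAAGT and a CEBP site as TTGCGNAA, and none of these contains another. The Cd55 window held GGGCGG, as 32.7% of windows do. That of C1qc held GGGCGG, and also GAGGAAGT (2.44% of windows), and that of C3 held TTGCGNAA (0.670% of windows). None of the 7 was found in the windows of Cd59b, Cr1l and C1qb. A match is a run of letters, and binding was not measured here.

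The genes whose pattern over the 4 libraries lay nearest to that of Cd59a were Scd4, Nt5c1a, Alas1, Ndufs5 and Phkg1. Likeness was the root mean square difference of centred log2 CPM, over 13461 genes with a mean of at least 1 CPM. Scd4, a stearoyl-CoA desaturase of the heart, was nearest at 0.164, with 7.62 and 6.85 CPM in mutant hearts and 53.0 and 46.0 CPM in wild-type hearts. Alas1, the first enzyme of haem synthesis, was at 0.194, with 116 and 130 CPM in mutant hearts and 551 and 479 CPM in wild-type hearts. Nt5c1a, a cytosolic nucleotidase, was at 0.191, Ndufs5, a subunit of respiratory complex I, at 0.201 and Phkg1, the muscle phosphorylase kinase catalytic subunit, at 0.210. For all 5 genes both mutant libraries lay below both wild-type libraries. That order follows from picking genes near Cd59a over these same libraries, and nothing is read from it.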

How the data were processed

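RNA-seq libraries were made from heart total RNA by BGI, per the labels. The submitters' processing notes name FastQC, HISAT2 and mm10; of versions, counting program and strand setting each was not given in the sources used here. Raw counts per gene are what the authors deposited, and they were used unchanged. Of 54752 rows, 54723 had a name in GENCODE M21 (GRCm38, the assembly of mm10), which also gave coordinates and lengths; 29 did not. Samples were grouped by the genotype in their titles. The members and lists were chosen with earlier results of these data known.

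Genes were kept with filterByExpr at default settings, which left 15283, scaled by TMM and compared between genotypes, with no covariate, in edgeR 4.0.16 under R 4.3.3 (quasi-likelihood test, 2 residual degrees of freedom). P-values were adjusted by Benjamini-Hochberg over all 15283 genes (FDR, threshold 0.05). TMM factors were 1.13 and 1.16 in mutant libraries and 0.806 and 0.943 in wild-type libraries. Library totals, and so the precision of low counts, ranged from 11677604 to 22217442; exact 95% intervals on ratios and the floor of 3 counts cover counting error only. The steps were tested on simulated counts. Named genes were Carm1, the 9 members, up to 4 called genes of each list by FDR or else its 2 most abundant, the 5 tested neighbours on each side of Cd59a, the 5 nearest profiles, and up to 2 called genes of each marker list. Tardbp, Alb, Ahsg, Upk3b, C4a, C6, C8a, C8b, Hc, C9, Cd55b and Gm16083 were named after their values were seen. Alternatives were other scaling factors, other filters, DESeq2 1.42.0, limma-voom (limma 3.58.1), a length trend offset, an FDR of 0.10, a replicate block and leaving out each library. Replicates of neither group were alike within sampling noise.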

Additional observations from a re-analysis of the deposited data

How the results depend on the processing

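Over the 16 alternatives the log2 fold change of Cd59a ran from −2.63 to −2.10, given as a description since the gene was picked on this comparison. Of the other 8 members 0 were called in the edgeR fit described; 2 were at an unadjusted p under 0.05, and limma-voom called 0. The number was 2 with no filter beyond 1 count, 1 with DESeq2, 1 with a length trend offset, 1 at an FDR of 0.10, and 0 to 2 when 1 library was left out. Complement genes that are not members gave 2 calls with no filter, 2 with DESeq2, 2 with the length offset, 3 at an FDR of 0.10, and 1 to 7 when 1 library was left out, against 1 in the fit described. The inhibitors over components difference was −1.96 per kilobase, −0.059 without Cd59a and −1.28 without C3. Without 1 library in turn, the log2 fold changes ran from −0.093 to 0.46 for C1qa, −0.032 to 0.51 for C1qb, −0.17 to 0.40 for C1qc and −0.52 to 0.68 for C4b. With library totals, Cr1l was at 0.039 and C4b at 0.33, and C4b was at 0.033 with upper-quartile factors and 0.084 with limma-voom. Library totals also put C1qa at 0.60, C1qb at 0.66, C1qc at 0.53 and Cd55 at 0.95, none called by edgeR. The cause of these shifts was not tested. Over all genes, calls numbered 1126 in the fit described, 2630 with no filter, 1709 with DESeq2, 2646 with the length offset, 2488 at an FDR of 0.10, and 377 to 5679 without 1 library. Where 1 library was left out, the lone one was taken to vary as the other pair does.

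The replicate numbers were not taken as pairs in the fit described. Over genes, the deviations of replicate 1 from its group mean correlated at −0.247 between the 2 groups. With 2 libraries a group, replicate 2 mirrors replicate 1, and crossed numbers would reverse the sign. The value therefore does not settle whether libraries were paired. With a replicate block, 2 other members were called, 1 complement gene that is not a member was called, 1222 genes were called in all and C4b was at 0.093. With the numbers crossed, a fit added after seeing the data, these counts were 3, 5 and 4176, and C4b was at 0.034. Depth limits Cd59b, with 7 counts in the mutant libraries together.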
